A study of Mus musculus with 10 samples.

Results

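Mid1 encodes midline 1, also called TRIM18, an E3 ubiquitin ligase of the tripartite motif family that binds microtubules. It was selected on its intensity difference between smoke and control lungs, the largest rise among the genes of the series, and is 1 of 18193 genes with a symbol of their own on the array. The Affymetrix Mouse 430 2.0 array carried 3 probe sets annotated with Mid1 as the only symbol (1438239_at, 1443666_at and 1422055_at), out of 34945 probe sets with 1 symbol and 45037 other than controls. They were measured in lung RNA of 10 C57BL/6J mice aged 2 weeks, 1 array per mouse. The 6 smoke mice shared a cigarette smoke chamber with their mother, starting at 1 day of age: daily sessions lasted 1 hour for the first 7 days and 2 hours for the next 7, with particulate matter averaging 90 mg/m3. The 4 control mice breathed filtered air, housed apart. The mice carried no labelled genetic change, and the labels give their sex as unknown and name no litter or array batch. Any p-value therefore measures only the spread between these arrays.

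MID1 is best known from cells in which its RING domain, through the adaptor alpha4 (the product of Igbp1), brings about the degradation of the catalytic subunit of protein phosphatase 2A (PP2A) on microtubules. In human cells this links it to mTORC1 signalling, and mutations of the human gene cause Opitz syndrome, a disorder of midline development. The mouse gene lies near the distal end of the X chromosome, where in Mus musculus it spans the boundary of the pseudoautosomal region shared with the Y chromosome. Its 3′ exons therefore lie in sequence that both sex chromosomes carry, and its 5′ exons do not.

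RefSeq (GRCm38.p6) lists 3 separate transcription starts for Mid1 in the promoter table used here, and the sequence from 250 bases before to 50 bases after each is shown because the deposited values do not say which start the changed RNA used. Capitals mark the letters TGANNNNGC, the core of the antioxidant response element bound by NRF2. The motif GCGTG, the core of the element bound by the aryl hydrocarbon receptor, was searched as well, on both strands.
Mid1 start A, chrX:169684949-169685248, plus strand: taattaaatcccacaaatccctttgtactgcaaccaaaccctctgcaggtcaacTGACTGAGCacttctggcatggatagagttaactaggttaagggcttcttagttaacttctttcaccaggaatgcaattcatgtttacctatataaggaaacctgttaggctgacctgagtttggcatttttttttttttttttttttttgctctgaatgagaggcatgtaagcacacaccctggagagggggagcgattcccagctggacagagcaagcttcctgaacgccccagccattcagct
Mid1 start B, chrX:169827909-169828208, plus strand: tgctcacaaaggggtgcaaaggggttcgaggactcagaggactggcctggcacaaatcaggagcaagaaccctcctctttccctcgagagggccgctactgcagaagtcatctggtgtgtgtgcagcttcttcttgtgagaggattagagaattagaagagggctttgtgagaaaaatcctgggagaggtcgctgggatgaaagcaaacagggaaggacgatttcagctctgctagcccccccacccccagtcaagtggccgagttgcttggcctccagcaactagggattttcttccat
Mid1 start C, chrX:169879369-169879668, plus strand: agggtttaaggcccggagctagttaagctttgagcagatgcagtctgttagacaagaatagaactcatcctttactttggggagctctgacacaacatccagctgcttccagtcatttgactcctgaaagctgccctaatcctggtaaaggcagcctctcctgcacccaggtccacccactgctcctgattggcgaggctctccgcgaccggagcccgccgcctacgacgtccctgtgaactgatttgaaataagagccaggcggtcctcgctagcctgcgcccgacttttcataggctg
Start A held 1 match to TGANNNNGC, on the plus strand and beginning 196 bases before the start, and starts B and C held none. GCGTG was in none of the 3 windows, and so had no overlap with the other motif. Over all 32851 promoters of the same length in the table, 41.3% held TGANNNNGC and 32.4% held GCGTG on either strand. A match is a description of the letters only. Start A had a GC content of 43.7%, start B 53.7% and start C 55.0%, beside a median of 52.7% over all promoters.

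Probe set 1438239_at read Mid1 far higher in smoke lungs than in control lungs, and the gene was chosen by this difference, so its values are given as a description without a test. The deposited intensities, on a linear scale, were 150.1, 157.1, 151.4 and 215.2 in control arrays 1 to 4. In the smoke arrays the lowest was 588.2 and the highest 5416.2, with a mean of 2250.0 ± 1684 (SD, n = 6) beside 168 ± 31.3 (SD, n = 4) in controls. The groups did not overlap, and the lowest smoke array was 2.73 times the highest control array.

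On the quantile normalized log2 scale used from here on, the control levels were 7.36, 7.29, 7.29 and 7.75 in arrays 1 to 4. The smoke levels were 10.57, 9.36, 11.18, 10.58, 11.13 and 12.51 in arrays 1 to 6, with a lowest of 9.36, a median of 10.85 and a highest of 12.51. In order, smoke array 6 stood highest, arrays 3 and 5 next and close together, then arrays 4 and 1 at nearly one level, and array 2 lowest.

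The control arrays averaged 7.42 ± 0.22 (SD, n = 4) and the smoke arrays 10.89 ± 1.03 (SD, n = 6), a log2 difference of 3.46 ± 0.46 (SE from limma), or 11.04-fold. Each of the 24 smoke and control pairs differed by at least 1.5-fold in the same direction, from 3.05-fold to 37.2-fold, and by at least 1.5-fold in the values as deposited too. All 6 smoke arrays lay above every control array, as did those of 1.97% of the 13381 genes tested, and 0.0224% of genes passed the threshold on the higher side. Since the contrast chose the gene, nothing is read from those shares. In RNA of whole lung, more cells of a type and more RNA per cell cannot be told apart.

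**Figure D1:**
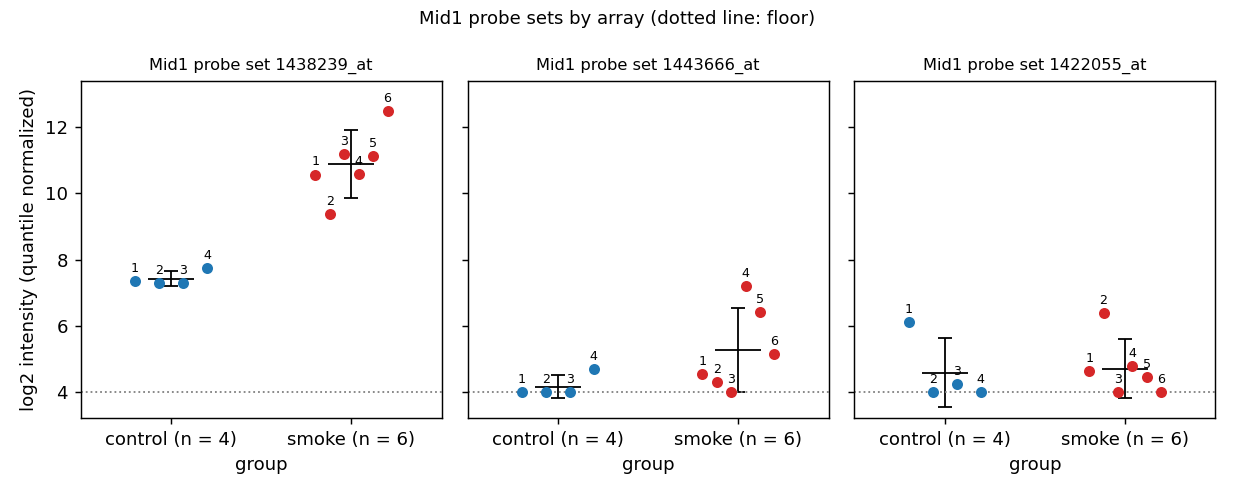
Quantile normalized log2 intensity of the 3 Mid1 probe sets, with a point and its number for each array, the group mean as a horizontal bar and the SD as whiskers. Probe set 1438239_at separates 4 control from 6 smoke arrays, while most values of the other probe sets lie near the floor of 3.98 (dotted line).

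The other probe sets read the gene near the lower limit of the table and did not show a difference of that size. Levels below the 10th percentile (a deposited intensity of 15.8, or 3.98 on the log2 scale) were set to it, and both of these probe sets were too dim to be tested. Probe set 1443666_at had deposited intensities of 9.7, 9.0, 10.3 and 24.7 in the controls, with 3 of 4 at the floor. Its smoke arrays ran from 5.5 to 181.8, with 1 of 6 at the floor. On the log2 scale 3 of 6 lay above every control. Its log2 levels were 4.16 ± 0.35 (SD, n = 4) and 5.26 ± 1.28 (SD, n = 6), a difference of 1.10 ± 0.61 (SE) that rests on control values at the floor. The groups overlapped, and the difference was 0.72 without smoke replicate 4, its highest array, and 0.38 with the floor at the 25th percentile.

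Probe set 1422055_at had deposited intensities of 60.9, 8.0, 18.8 and 3.4 in the controls and from 8.1 to 79.2 after smoke, with 2 arrays of each group at the floor. The highest values were those of smoke array 2 and control array 1, so the groups overlapped over nearly their whole range. The log2 levels were 4.58 ± 1.04 (SD, n = 4) and 4.70 ± 0.88 (SD, n = 6), a difference of 0.12 ± 0.56 (SE). The difference was 0.64 without control replicate 1, -0.21 without smoke replicate 2 and 0.74 without any floor. The dim probe sets also differed from each other in order, since smoke array 4 was highest for 1443666_at and smoke array 2 for 1422055_at. Smoke array 6, the highest for 1438239_at, was at the floor for 1422055_at. The difference in Mid1 between the groups was thus measured by 1 of its 3 probe sets, and probe positions along the transcript were not used here, so which exons or starts each one covers is not stated.

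Mid1 varied much more among the smoke lungs than among the control lungs. The SD of 1438239_at was 1.03 over the smoke arrays, exceeded by 6.34% of genes tested (median 0.45), and 0.22 over the control arrays, exceeded by 56.4% (median 0.25). The control SD rested on array 4 and was 0.041 without it, exceeded by 97.3% of genes. Without smoke array 2 or 6 the smoke SD was 0.79 or 0.73, exceeded by 15.2% or 18.3%. The smoke arrays spanned 3.14 log2 units, or a 9.21-fold range of deposited intensity, and the control arrays 0.47, or 1.43-fold. The number of arrays, 4 and 6, limits the precision of each of these values.

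Xist, the RNA that coats the inactive X chromosome and so marks females, was high in 4 arrays and low in 6. High levels, 13.96 to 14.09, were found in control arrays 2 and 4 and smoke arrays 5 and 6, and low levels of 8.25 to 9.38 in the others. Kdm5d and Eif2s3y, genes of the Y chromosome, were high where Xist was low, as Eif2s3y at 9.38 and 10.25 in control arrays 1 and 3 beside 5.59 and 4.82 in control arrays 2 and 4. Among low-Xist arrays, Mid1 1438239_at lay at 7.29 to 7.36 in 2 controls and 9.36 to 11.18 in 4 smoke arrays, a difference of means of 3.10. Among high-Xist arrays it lay at 7.29 to 7.75 in 2 controls and 11.13 to 12.51 in 2 smoke arrays, a difference of 4.29. The groups did not overlap within either set, a division made after seeing the data. The larger difference among high-Xist arrays was not tested. The high-Xist smoke arrays also had the lowest actin 3′ to 5′ ratios of the smoke group, a measure of RNA quality described below. These were 2.18 and 2.98, against 9.26 to 31.6 in the low-Xist smoke arrays. Xist class and RNA quality therefore cannot be told apart within the smoke group.

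The actin 3′ to 5′ ratio, a measure of how far the amplified RNA reaches towards the 5′ end, was 31.6 and 29.4 in smoke arrays 1 and 2, against 3.96 to 10.4 in controls and 2.18 to 10.3 in the other smoke arrays. Smoke array 2 had the lowest Mid1 level of the smoke group and array 6, with a ratio of 2.98, the highest. The other smoke arrays did not follow the ratio in order. Array 5, with the lowest ratio of 2.18, was at 11.13, beside 11.18 in array 3 with a ratio of 9.26. Array 1, with the highest ratio of 31.6, was at 10.57, beside 10.58 in array 4 with a ratio of 10.3. Without smoke arrays 1 and 2 the log2 difference of 1438239_at was 3.92, and with the log2 ratio as a covariate 3.57, against 3.46 with all arrays. The part of RNA quality in the spread among the smoke arrays was not tested.

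**Figure D2:**
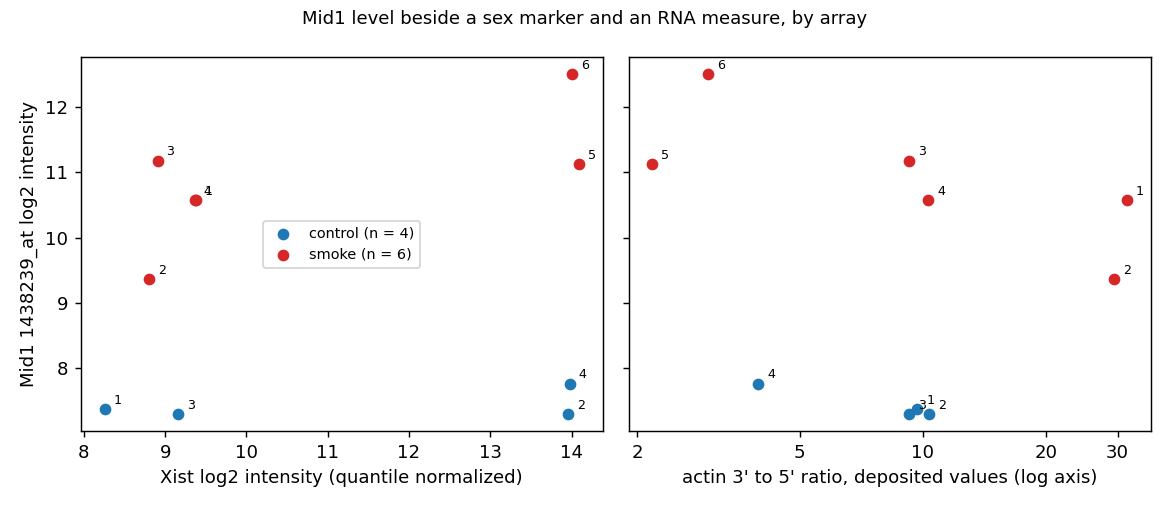
Log2 intensity of Mid1 probe set 1438239_at on each array against the log2 intensity of Xist (left) and the actin 3′ to 5′ ratio on a log axis (right), with array numbers. Smoke arrays lie above control arrays at both low and high Xist, and smoke arrays 1 and 2 have ratios of 31.6 and 29.4.

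Genes that define lung were present on all arrays, with the mean log2 level of 6 epithelial markers, among them the surfactant genes Sftpc and Sftpb, at 13.47 to 13.58 in controls and 13.06 to 13.86 after smoke. Endothelial markers (4 of 4 tested) were at 11.38 to 11.90 in controls and lowest in smoke arrays 1 and 2, at 10.51 and 10.35, the others lying at 11.39 to 12.00. Cardiac muscle markers (4 of 4 tested) ran from 9.04 to 10.09 in controls and from 8.03 to 10.42 after smoke, and fibroblast and smooth muscle markers (5 of 5) from 11.30 to 11.78 and from 11.06 to 12.02. Leukocyte markers (3 of 4) lay at 8.54 to 9.04 and 8.82 to 9.09, and erythroid markers (2 of 3) at 10.31 to 11.46 and 10.47 to 12.11. Of 4 fat markers 1 was tested, at 5.77 to 9.88 and at 3.98 to 9.08. None of these 25 tested markers passed the threshold, where 0.725% of all genes tested did, and their part in the Mid1 levels was not tested.

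The partners through which MID1 acts on PP2A did not differ between the groups beyond the threshold. Of 10 genes listed for alpha4 and PP2A, all were tested and none passed in either direction (limma, adjusted p of 0.580 to 0.990), where 0.725% of all genes did (0.0224% higher and 0.702% lower). Their median log2 change was 0.16, beside 0.06 over all genes tested, and none had groups that did not overlap, where 4.09% of all genes did (1.97% higher and 2.11% lower). Igbp1, which encodes the adaptor alpha4, was at 11.32, 11.41, 11.21 and 11.05 in controls and from 10.96 to 12.27 after smoke. Its highest values were those of smoke arrays 1 and 2, and the log2 change of 0.31 ± 0.27 (adjusted p = 0.720) was within the spread of the arrays. It was 0.17 without smoke replicate 2. Its 4 tested probe sets ranged from -0.79 to 0.46.

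Ppp2ca, the main catalytic subunit of PP2A, had a log2 change of -0.32 ± 0.19 (adjusted p = 0.580), with controls at 13.07, 12.91, 12.87 and 12.83 and smoke arrays from 12.15 to 13.10. Smoke arrays 1 to 4 lay below every control and arrays 5 and 6 did not. Probe sets 1439912_at and 1456390_at of the gene read -0.47 and 0.49, opposite in sign. Ppp2cb, the second catalytic subunit, was at 0.02 ± 0.34 (adjusted p = 0.990). Ppp2r1a, a scaffold subunit of PP2A, was at 0.51 ± 0.32 and Ptpa, an activator of the phosphatase, at 0.39 ± 0.26 (adjusted p = 0.609 and 0.631). Without smoke arrays 5 and 6, Ppp2r1a passed at 0.96 (adjusted p = 0.00548) and Ppp2ca at -0.53 (adjusted p = 0.0484). That setting also leaves out the high-Xist smoke arrays, which had the lowest actin 3′ to 5′ ratios of the smoke group, 2.18 and 2.98. In it 426 of 13390 genes passed higher and 331 lower. With all arrays 3 of 13381 genes passed higher and 94 lower. The 5 tested probe sets of Ppp2r1a ranged from -0.055 to 0.57. Mid1ip1, whose product binds MID1 and acts in fatty acid synthesis, was at -0.23 ± 0.67 (adjusted p = 0.923), with smoke arrays from 8.43 in array 1 to 12.31 in array 5.

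Relatives of MID1 with the COS box, the stretch that places these proteins on microtubules, were next. Of 10 listed genes 4 were tested, 4 were below the filter and 2 had no matching probe set. None of the 4 tested passed, where 0.725% of all genes did. Mid2, the closest paralogue, was at 9.21, 9.32, 9.06 and 9.09 in controls and from 8.86 to 10.44 after smoke, with a log2 change of 0.38 ± 0.30 (adjusted p = 0.691). Smoke arrays 1, 2 and 4 were above every control and arrays 5 and 6 below, so its order among the smoke arrays was not that of Mid1, whose level was highest in array 6. Its other probe set was at 0.20, and the change was 0.20 without smoke replicate 1.

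Trim67 and Trim36 were at 1.24 ± 0.43 and 0.83 ± 0.33 (adjusted p = 0.365 and 0.438), the first with controls at 7.47, 6.93, 7.17 and 6.65. Smoke arrays 1 to 4 held Trim67 at 8.48, 8.67, 8.71 and 9.46, above every control, while arrays 5 and 6, at 7.03 and 7.45, lay within the control range. Trim36 likewise was above every control in smoke arrays 1 to 4, at 8.30 to 9.25. Both passed without smoke arrays 5 and 6, at 1.77 (limma adjusted p = 0.00906) and 1.19 (limma adjusted p = 0.0389). Those arrays held Xist high and also had the lowest actin 3′ to 5′ ratios of the smoke group, 2.18 and 2.98. The parts of Xist and of RNA quality cannot be told apart there and were not tested. In that setting 426 of 13390 genes passed higher, against 3 of 13381 with all arrays. Trim9 was at 0.88 ± 0.68 (adjusted p = 0.682), and at 0.19 without control replicate 1, its lowest array at 4.16. The median of the 4 was 0.85, beside 0.06 over all genes tested, and 0.54 without control replicate 1.

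Further along the pathway, none of the 10 tested of 11 listed mTORC1 genes passed, where 0.725% of all genes did. Their log2 changes, 4 positive and 6 negative, ran from -0.65 to 0.45 with a median of -0.02, beside 0.06 over all genes tested. The 4 tested probe sets of Deptor ranged from -1.89 to -0.32, and the 3 of Eif4ebp1 from -0.74 to 0.37. For 1 of the 10 genes, Tsc1, the groups did not overlap, where 4.09% of all genes had such groups. Tsc1, a brake on mTORC1, was at 9.64, 9.75, 9.66 and 9.53 in controls and from 9.05 to 9.49 after smoke, a log2 change of -0.32 ± 0.16 (adjusted p = 0.539). Rptor and Mlst8, subunits of the complex, were at -0.33 ± 0.17 and 0.45 ± 0.22 (adjusted p = 0.539 and 0.513). In the branch of the Fused kinase and the GLI factors, on which MID1 acts in human cells, none of 5 tested members passed and all 5 had a positive log2 change, as did 7617 of the 13381 genes tested. Their median was 0.57, and 0.35 without smoke replicate 1. Gli2, a transcription factor of hedgehog signalling, was at 1.22 ± 0.45, the kinase gene Stk36 at 0.59 ± 0.32 and Sufu, a restraint on GLI factors, at 0.57 ± 0.33 (adjusted p = 0.397, 0.556 and 0.582). Smoke arrays 5 and 6 held Gli2 at 8.08 and 8.65, within the control range of 6.91 to 9.06. The tested probe sets of Gli3 ranged from -0.10 to 0.38, so its sign depended on the probe set used.

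Of 7 ubiquitin-conjugating enzymes that serve RING ligases, 7 were tested and none passed, where 0.725% of all genes did. Their median was -0.05, beside 0.06 over all genes tested. Ube2e1, Ube2d3 and Ube2d1 were at -0.41 ± 0.21, -0.27 ± 0.17 and 0.36 ± 0.24 (adjusted p = 0.526, 0.612 and 0.627), and the tested probe sets of Ube2d3 ranged from -0.37 to 0.44 and those of Ube2e1 from -0.41 to 0.17. Tnfsf10, which encodes the ligand TRAIL, had a log2 change of -0.65 ± 0.21 (adjusted p = 0.322), while its receptor gene was below the filter. Over the 8 lists, 62 of 78 listed genes were tested and none passed, where 0.725% of all genes did. At a share that small, lists of this length can hold none, so nothing is read from the absence of calls. Limma gave 5 members an unadjusted p under 0.05. Over all genes 10.2% had such a p.

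**Figure D3:**
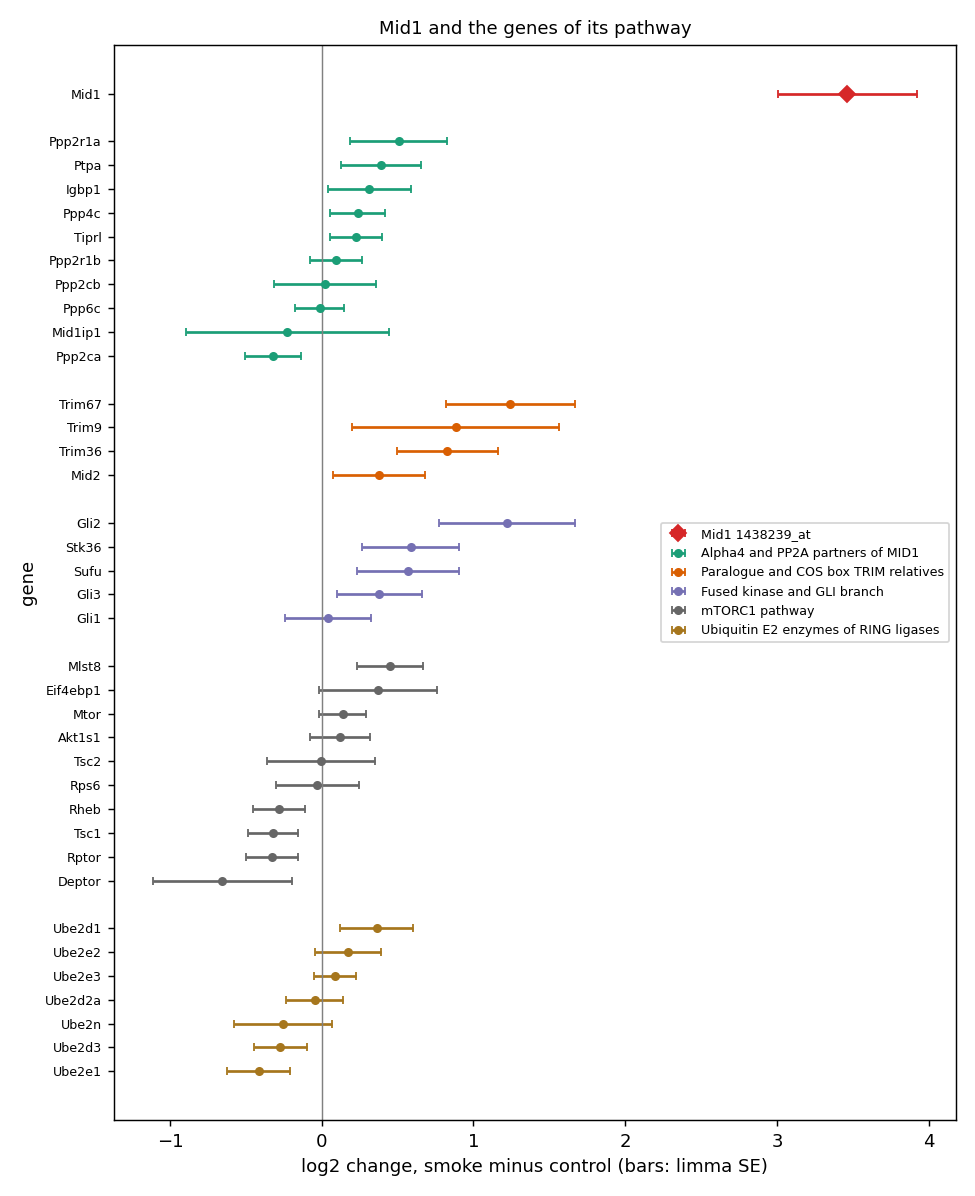
Log2 change between smoke and control lungs (points) with limma's SE (bars) for Mid1 probe set 1438239_at and for the tested members of 5 lists, coloured by list. Mid1 stands at 3.46 and the listed genes between -0.65 and 1.24.

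Genes next to Mid1 on the X chromosome did not share its difference. Of 24 listed genes of the distal X chromosome 17 were tested and none passed, where 0.725% of all genes did. Their log2 changes were -0.36 to 0.62 with a median of 0.03, beside 0.06 over all genes tested. Hccs, the cytochrome c haem lyase gene, the nearest tested gene on the proximal side, was at -0.36 ± 0.23 (adjusted p = 0.604), and its other probe set at 0.22. Arhgap6, a little farther off, was at 0.0036 ± 0.18 (adjusted p = 0.997), with controls at 10.30 to 10.59 and smoke arrays at 10.07 to 10.79, and its other tested probe set at -0.19. Egfl6, Tceanc and Gemin8 were at 0.59 ± 0.25, 0.39 ± 0.21 and 0.42 ± 0.23 (adjusted p = 0.459, 0.557 and 0.559), with the other tested probe set of Gemin8 at -0.17. Asmt, on the distal side, had no matching probe set.

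Among the genes that follow Mid1 in the RefSeq order are G530011O06Rik, a long noncoding RNA, and Erdr1, both chosen here after their values were seen. Probe set 1452406_x_at of Erdr1 was at 9.58, 8.88, 8.55 and 8.85 in controls and from 8.16 to 9.86 after smoke, with a log2 change of -0.24 ± 0.33 (adjusted p = 0.828). The other Erdr1 probe set and that of G530011O06Rik were below the filter, at 0.47 ± 0.55 and -0.75 ± 0.78. G530011O06Rik was at the floor in smoke arrays 5 and 6 and highest in smoke array 2, at 7.95, where Mid1 was lowest among the smoke arrays. In the list of sex chromosome markers none of 8 tested genes passed, where 0.725% of all genes did. Kdm6a and Ddx3x, on the X chromosome, were at -0.53 ± 0.27 and -0.30 ± 0.18, and Kdm5d on the Y chromosome at 1.02 ± 1.25 (adjusted p = 0.529, 0.594 and 0.804). Other tested probe sets read lower, Kdm6a 1427672_a_at at -1.99 ± 0.84 and Ddx3x 1423043_s_at at -2.14 ± 0.98 (adjusted p = 0.464 and 0.498). Both had all 6 smoke arrays below every control, as did 2.11% of genes tested, a share taken over the brightest probe set of each gene. By that choice of probe set, 0 of the 8 tested genes of this list had groups that did not overlap. The 2 probe sets were picked as the lowest of their genes, so nothing is read from their lack of overlap. Smoke arrays 1 and 2, which held the high actin ratios, were far the lowest, at 5.19 and 5.89 for Kdm6a and 8.41 and 7.21 for Ddx3x. The other smoke arrays lay at 9.10 to 9.43 and 12.00 to 12.54. The part of RNA quality was not tested. Leaving out control replicate 4 gave Kdm5d a change of 0.30, leaving out smoke replicate 5 gave 1.85, and Ddx3x was at -0.19 without smoke replicate 1. Kdm5d lay at 4.37 to 6.39 in the high-Xist arrays, 2 of 4 controls and 2 of 6 smoke arrays, and at 9.11 to 10.52 in the others. Control array 4 and smoke array 5 were both high-Xist. The groups thus differ in their share of high-Xist arrays, and the part of this in the changes was not tested.

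**Figure D4:**
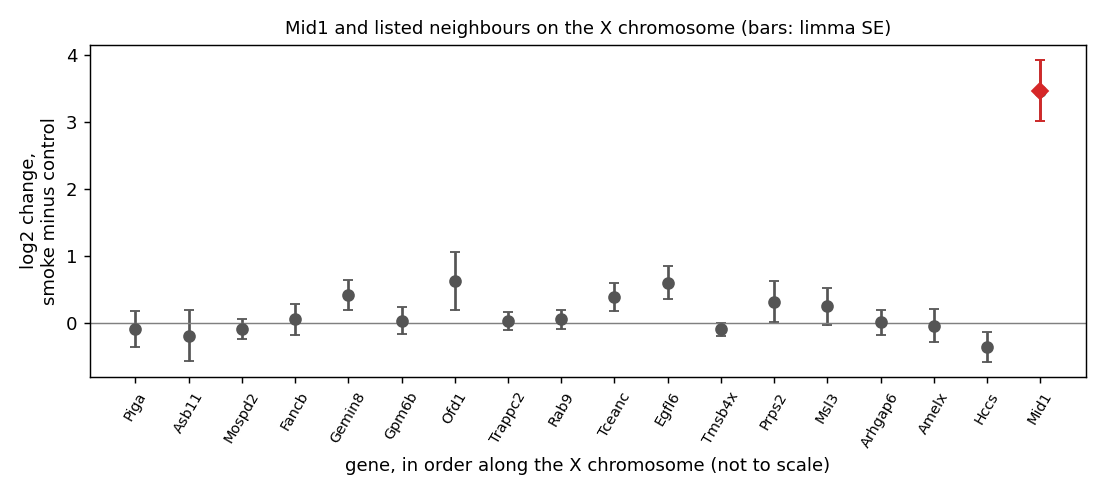
Log2 change between smoke and control lungs with limma's SE for Mid1 (diamond) and the 17 tested listed genes of the distal X chromosome, in their RefSeq order and not to scale. The neighbours lie between -0.36 and 0.62, and Mid1 at 3.46.

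The genes whose levels followed Mid1 1438239_at most closely over the 6 smoke arrays, by Pearson's r, were Fndc4 (0.97), Snrpg (0.96), Fam117b (0.95), Cldn5 (0.95) and Nfatc1 (0.95). Snrpg encodes a core spliceosome protein, Cldn5 a tight junction protein of endothelium and Nfatc1 a calcium-responsive transcription factor. Those that ran most opposite were Ccn6, a matricellular protein gene, Abcf3 and Afmid, an enzyme gene of tryptophan breakdown, at -0.998, -0.99 and -0.99. Spearman's rho was 0.71, 0.94, 0.71, 0.66 and 0.94 for the first 5 and -0.94, -0.89 and -0.89 for the last 3. Among 13380 genes, 63 had an r above 0.9 and 147 one below -0.9, so these 8 are the ends of a long ranking over few arrays.

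Smoke arrays 2 and 6 lay farthest from the median Mid1 level, and without them r over 4 arrays was 0.55 for Fndc4, 0.68 for Snrpg, 0.57 for Fam117b, 0.40 for Cldn5 and 0.89 for Nfatc1. It was -0.98 for Ccn6, -0.89 for Abcf3 and -0.91 for Afmid. The points share their library and its RNA quality, and smoke arrays 1 and 2 held the high actin ratios and the low endothelial markers given above. None of the 8 genes passed between smoke and control, at log2 changes of -0.44 for Fam117b to 0.27 for Cldn5 (adjusted p of 0.408 to 0.989). Other tested probe sets disagreed with the one used for Nfatc1, at -0.31 to 1.28, and for Abcf3, at -0.26 to 0.26. The highest for Nfatc1 (1447085_s_at, adjusted p = 0.220) had all 6 smoke arrays above every control, as did 1.97% of genes tested. It was picked as the highest of its gene, so nothing is read from that.

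Over all 10 arrays the closest genes were Egln1 (r = 0.92), Id4 (0.92), Hoxb6 (0.90), Sh3pxd2a (0.89) and Gramd4 (0.88). These arrays form separate clusters by group in Mid1, so r largely restates the difference between the groups. All 5 had every smoke array above every control array, as did 1.97% of all genes, but the choice by r favours such genes, so nothing is read from that count. They were at log2 changes of 0.35 for Egln1, an oxygen-sensing prolyl hydroxylase gene, 0.74 for Id4, 0.63 for Hoxb6, a homeobox gene, 0.76 for Sh3pxd2a, a podosome scaffold gene, and 0.57 for Gramd4. None passed (adjusted p = 0.441, 0.228, 0.230, 0.107 and 0.264). With the actin ratio as a covariate Id4 passed at 0.78 (adjusted p = 0.0198) and Sh3pxd2a at 0.78 (adjusted p = 0.0128), and without smoke arrays 1 and 2 Sh3pxd2a passed at 0.90 (adjusted p = 0.0287). In those settings 151 of 13381 and 10 of 13303 genes passed higher, against 3 with all arrays. As the choice by r favours genes that differ between the groups, nothing is read from these calls. Other tested probe sets of Egln1 and Id4 had the opposite sign, at -0.51 and as low as -0.39.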

How the data were processed

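Trizol-extracted lung RNA of 10 mice (4 control, 6 smoke) was amplified and read on Affymetrix Mouse 430 2.0 arrays, 1 for each mouse, per the labels' protocols. The deposited values are linear intensities, 1 for each probe set on an array; how the authors summarised probes is not given in the sources used here. After trimming 2% from each end, every array averaged 500.002 to 500.003. There were no detection calls, so dim probe sets have no stated background.

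The 1 value at 0 took the smallest positive value in the table. After log2, the arrays were quantile normalized (median log2 of the deposited values ran from 7.01 to 7.70), and values under the 10th percentile were raised to it. Of 45037 probe sets other than controls, the 27022 in the upper 60% by mean entered limma 3.58.1 (R 4.3.3; lmFit, then eBayes with a trend). P-values were two-sided and adjusted over all 27022 by Benjamini-Hochberg, at a threshold of 0.05. Each of 13381 genes was represented by its brightest tested probe set among those with a single symbol. Symbols came from the platform annotation, and the GRCm38.p6 table changed 0 of them.

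Mid1 and the 8 gene lists were chosen with earlier results of these data known. Named genes were the Mid1 probe sets, 7 fixed genes (Mid2, Igbp1, Ppp2ca, Ppp2cb, Xist, Arhgap6, Hccs), the 3 smallest p of each list with any member that passed, and the genes most like Mid1 by r, skipping predicted names. On simulated normal data with the mean and pooled SD of each of 27022 probe sets, the fit recovered 80% of 50 raised by a log2 change of 2 and 64% of 50 lowered by 2. At a change of 1 it recovered 12% in each direction, with 5 false calls. The simulation gave both groups the same SD and drew values independently. In the real arrays the median SD over genes was 0.45 in smoke and 0.25 in controls, so these rates need not hold there. Correlations between arrays ran from 0.838 to 0.961, and 0 pairs were identical. Same-numbered control and smoke arrays had correlations of deviations from the group means of -0.097, 0.12, -0.027 and -0.014. Python 3.11.15 and matplotlib 3.10.9 made the plots.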

Additional observations from a re-analysis of the deposited data

Results flagged for a closer look

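Arrays that stood apart within their group were sought for the 3 Mid1 probe sets and 41 other named genes, as a gap to the nearest other array that is large beside the group's whole range. Of 88 groups 10 held such an array, where chance gives about 1 in 20, or 4.4. All groups come from the same 10 arrays, and some hold several values at the floor, so nothing is read from 10 beside 4.4. For Mid1 1438239_at, control array 4 stood at 7.75 above the other controls at 7.29 to 7.36. For 1443666_at, control array 4 stood at 4.68 while the others were at the floor. For 1422055_at, control array 1 stood at 6.12 (others up to 4.23) and smoke array 2 at 6.37 (others up to 4.79). Control array 2 stood apart for Ppp2cb at 10.30 (others from 10.73), Gemin8 at 6.95 (others from 7.47), Nfatc1 at 8.81 (others from 9.23) and Ccn6 at 7.07 (others up to 6.81). Control array 3 stood apart for Mlst8 at 7.54 (others from 8.07), and control array 1 for Cldn5 at 13.46 (others up to 13.08).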

How the results depend on the processing

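The log2 difference of Mid1 1438239_at was 3.00 to 3.96 under every alternative run other than the division by Xist, and 3.10 and 4.29 in low-Xist and high-Xist arrays alone. It was 3.44 as deposited, 3.36 with median centring, 3.96 with array weights, 3.56 with Xist as a covariate and 3.14 to 3.77 over single omissions. With the replicate block over arrays 1 to 4 the difference was 3.00 ± 0.32 (SE), and without the block 3.00 ± 0.35. Each replicate number there holds 1 array of each group, so a block cannot move the difference. The equal values therefore say nothing on whether replicate numbers pair the arrays. Every smoke array in these 2 settings was low-Xist, with an actin ratio above those of smoke arrays 5 and 6. The controls held both Xist classes. Probe set 1422055_at changed sign under array weights (-0.18) and when smoke arrays 1 and 2 were left out (-0.28), and ran from -0.21 to 0.64 over single omissions. Genes higher numbered 3 and lower 94, against 6 higher with Xist as a covariate, 5 with the floor at the 25th percentile, 5 with median centring, 7 without the filter, 10 in the upper 40%, 8 as deposited and 10 without smoke arrays 1 and 2. They numbered 41 higher and 142 lower with array weights, 151 and 220 with the actin ratio, 426 and 331 without smoke arrays 5 and 6, 452 and 339 with the replicate block, and 1 to 7 and 58 to 101 over single omissions. Of these, 1 higher came without control replicate 2 or smoke replicate 3, 6 without smoke replicate 6 and 7 without smoke replicate 5, and 58 and 59 lower without control replicates 2 and 3. The cause was not tested. Among list members 1 PP2A gene was higher and 1 lower without smoke arrays 5 and 6, and 1 higher with the replicate block. In the COS box list 2 were higher in both settings, and in mTORC1 1 was higher with the block. List medians moved by over their SD for mTORC1 (-0.14 without smoke arrays 5 and 6 with or without the block, -0.11 without smoke arrays 1 and 2, -0.15 without _x_at and _s_at probe sets, -0.15 to 0.10 over single omissions), ubiquitin enzymes (0.16 without smoke arrays 5 and 6, with or without the block, -0.13 to 0.14 over single omissions) and X neighbours (0.13 without smoke arrays 5 and 6, with or without the block, -0.080 with median centring). Of 975 values of 41 named genes under alternatives, 13 passed where the whole set did not and 56 changed sign, all for genes that did not pass with all arrays. Without smoke arrays 1 and 2 the values with a changed sign were Igbp1 -0.031, Xist 0.26, Arhgap6 -0.036, Snrpg 0.0033, Nfatc1 0.068, Ccn6 -0.12 and Afmid -0.11. With array weights they were Xist 0.64, Arhgap6 -0.11, Kdm5d -0.14, Snrpg 0.0063, Nfatc1 0.047, Ccn6 -0.14 and Afmid -0.11. Without smoke arrays 5 and 6, with or without the block, they were Ppp2cb -0.38, Ube2d3 0.57 and Fndc4 -0.012. With median centring they were Ppp2cb -0.084, Arhgap6 -0.089 and Ube2d3 0.38, and as deposited Ppp2cb -0.0036, Arhgap6 -0.0091, Ube2d3 0.46 and Nfatc1 0.015. Arhgap6 was at -0.021 with Xist and -0.020 with the actin ratio as a covariate, and Nfatc1 at 0.0066 with the latter. Without _x_at and _s_at probe sets Arhgap6 was at -0.19, Ppp2r1a at -0.055 and Abcf3 at -0.26. Over single omissions values ran from -0.051 to 0.24 for Afmid, -0.057 to 0.086 for Arhgap6, -0.050 to 0.30 for Ccn6, -0.088 to 0.21 for Fndc4, -0.13 to 0.052 for Nfatc1, -0.15 to 0.21 for Ppp2cb, -0.36 to 0.54 for Ube2d3 and -1.61 to 0.30 for Xist.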
